A study of Oryza sativa with 6 samples.

Results

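Roots of rice seedlings given copper were set directly against roots of seedlings given cadmium. All 6 of the 6 two-colour oligonucleotide arrays of the study entered the comparison, 3 from copper roots and 3 from cadmium roots. The seedlings were Oryza sativa of cultivar TN-67, 6 days old, and the metals were 5 µM copper and 25 µM cadmium. On every array, cRNA from roots given a metal was labelled with Cy5 (red) and cRNA from water-control roots with Cy3 (green), and the array gave a log2 ratio of metal over water. Taken were all non-control probes whose name begins with a rice locus number or with a rice microRNA precursor, which were 42418 of the 42477 non-control probes and stood for 29695 loci and 169 precursors. The quantity compared was the difference of the log2 ratios, copper minus cadmium. A dye effect that is the same on all arrays drops out of this difference. The doses differed, so the metal and its dose cannot be told apart, and how long the roots were exposed is not stated in the labels used here. According to the labels, the 3 arrays of each metal are biological replicates.

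Copper is a micronutrient that plant cells need for electron transport and for several oxidases, and an excess of it drives the formation of reactive oxygen species. Cadmium has no known function in land plants, enters roots through carriers of nutrient metals and binds thiols, and its sequestration by phytochelatins draws on sulfur and glutathione. MicroRNA precursors are the long transcripts from which microRNAs are cut, and the labelled cRNA on these arrays read such long RNA and not the mature microRNA. The files give protein-coding genes by locus number without names, and no number or accession matched the reference table (0 and 0 matches). The root identity of the tissue could therefore not be checked against marker genes. In whole roots, fewer cells of a type and less RNA per cell cannot be told apart.

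Between 77.1% and 82.4% of the probes of an array were well above background in Cy5 and between 75.7% and 81.3% in Cy3, with 0 saturated spots. Copper replicate 1 and cadmium replicate 1 each lay on a slide of their own, and the other 4 arrays, 2 of each metal, shared a slide. The replicate 1 arrays stood apart in both channels. In the water channel they correlated with each other at 0.982 and with the arrays of the shared slide at 0.807 to 0.901, while the arrays of the shared slide correlated among themselves at 0.979 to 0.998. The log2 ratios of copper 2 and copper 3 correlated at 0.964 and those of cadmium 2 and cadmium 3 at 0.95, against 0.811 and 0.839 of copper 1 and 0.824 and 0.80 of cadmium 1 with the other arrays of their metal. The design text lists 3 control replicates for the 6 arrays, so copper and cadmium arrays may share control RNA. The labels used here do not say which control RNA went onto which array.

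The first question was how many transcripts differed between the metals, and in which direction. The comparison held 23417 genes whose probes were bright enough, 23288 loci and 129 microRNA precursors. Of these, 2491 differed between copper and cadmium roots (10.6%, limma, adjusted p under 0.05). They were 1538 genes higher with copper (6.57%) and 953 higher with cadmium (4.07%), so that 61.7% of the calls were copper higher. At least 2-fold higher were 583 genes with copper (2.49%) and 313 with cadmium (1.34%). At least 4-fold differences were found in 105 genes higher with copper and 69 higher with cadmium, and at least 8-fold differences in 21 and 14. The median size of a called difference was 0.82 on the log2 scale, and the median difference of all 23417 genes was -0.01. Called genes separated the arrays completely wherever all 6 values were present. In 2416 called genes the 3 copper values did not overlap the 3 cadmium values, the other 75 lacked a value on at least 1 array, and in 0 did they overlap. Over all genes tested, all copper arrays lay above all cadmium arrays in 16% and all cadmium arrays above all copper arrays in 15.2%.

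**Figure D1:**
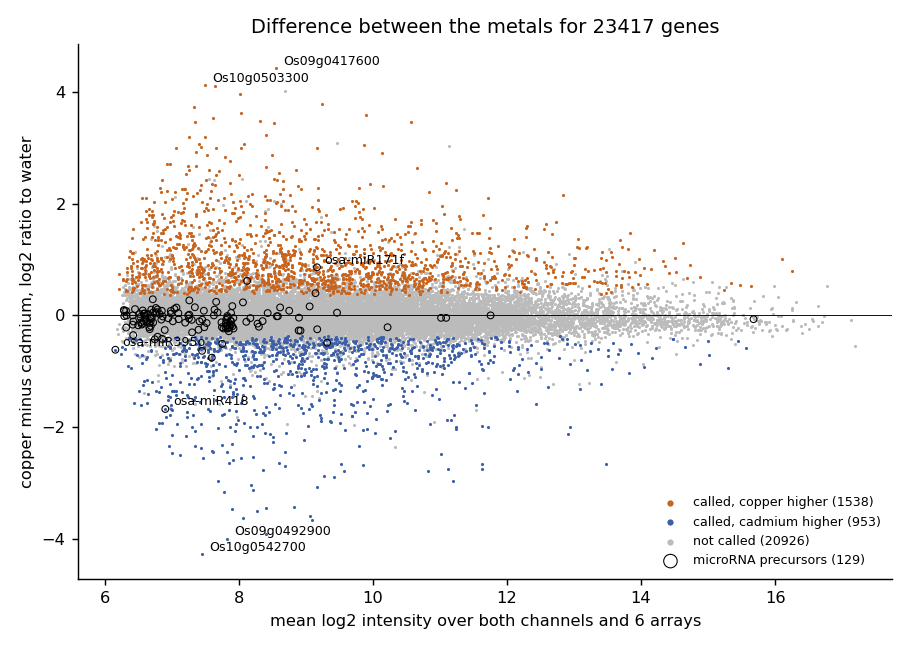
Each point is 1 of 23417 genes, placed by its mean log2 intensity over both channels and all 6 arrays (horizontal axis) and its difference in log2 ratio, copper minus cadmium (vertical axis). The 1538 genes called higher with copper and the 953 called higher with cadmium are coloured, and the 129 microRNA precursors are ringed and lie mostly near 0.

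Calls came from the whole range of signal. In 4 groups of near-equal size by mean intensity, dimmest first, 336, 424, 401 and 377 genes were higher with copper and 137, 285, 293 and 238 were higher with cadmium. The filter kept 93.8% of the genes through arrays of both metals. Through copper arrays alone it kept 419 genes, among which were 73 of the 583 genes at least 2-fold higher with copper. Through cadmium arrays alone it kept 1026, among which were 23 of the 313 genes at least 2-fold higher with cadmium. The filter itself favours that direction, and of the genes kept through copper arrays alone 121 were called higher with copper and 0 higher with cadmium, while of those kept through cadmium arrays alone 4 and 41 were.

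Most genes showed no difference that these arrays could resolve. The standard error of a difference had a median of 0.133 on the log2 scale. Of the 20926 genes not called, 19824 had a 95% interval of the difference that lay wholly within 1 log2 unit of 0, and 114 had an estimate of at least 1 in size without passing the test. Over all genes the interval lay within 1 log2 unit of 0 in 88.6%. The number of arrays limits this precision. The intervals also hold only for the background correction used here, normexp with an offset of 50. Some differences of dim probes were larger in size under other corrections, as given below for osa-miR395o.

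The counts rested on how the arrays of the 3 slides were combined. In 1 alternative the arrays were paired by the numbers in their titles. With the replicate number as a block, 2202 genes were higher with copper and 1564 with cadmium. The correlations behind this pairing do not separate it from the shared slide, and the main fit used no pairs. On the 4 arrays of the shared slide alone, where each metal has 2 arrays, 3370 were higher with copper and 2706 with cadmium. There the spread comes from 1 pair of arrays per metal, and the position on the slide cannot be told apart from the metal. With 1 array of the shared slide left out (copper replicate 2, copper replicate 3, cadmium replicate 2 or cadmium replicate 3), the genes higher with copper numbered 840, 765, 837 and 878, and those higher with cadmium 417, 487, 445 and 473. The counts of genes at least 2-fold different stayed within 440 to 815 with copper higher and within 236 to 450 with cadmium higher over 23 alternatives.

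The next question was in which channel the differences lay, since a difference of ratios can come from the treated RNA or from the water control. The Cy5 channel, which holds the treated RNA, differed between copper and cadmium arrays in 309 genes (1.32%, limma on intensities scaled between arrays, adjusted p under 0.05), 220 higher with copper and 89 higher with cadmium. Of the 309, 257 were also called in the ratios. The Cy3 channel, which holds water-control RNA on both kinds of array, differed in 0 genes (0%), with 227 at an unadjusted p under 0.05 and 0 calls also when each channel was quantile normalized. The standard errors were wider in single channels than in ratios, with medians of 0.289 in Cy5 and 0.278 in Cy3. On the shared slide alone the Cy5 channel differed in 4420 genes and the Cy3 channel in 284, so the water channels of the 2 kinds of array were not alike in every fit.

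Among the genes at least 2-fold different, which these same ratios chose, the difference sat in the treated channel. The 583 genes higher with copper had a median Cy5 difference of 1.42 (quartiles 1.13 and 1.91) and a median Cy3 difference of 0.03 (quartiles -0.14 and 0.19). The 313 genes higher with cadmium had a median Cy5 difference of -1.46 (quartiles -1.87 and -1.13) and a median Cy3 difference of 0.05 (quartiles -0.08 and 0.21). The Cy3 difference was as large as the Cy5 difference in 6 of the 583 and in 11 of the 313.

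**Figure D2:**
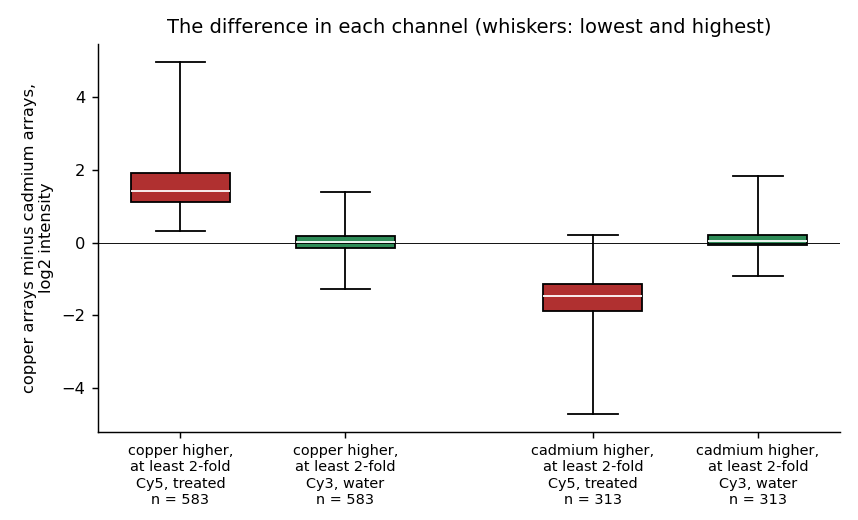
Boxes show copper arrays minus cadmium arrays in log2 intensity for the 583 genes at least 2-fold higher with copper (left pair) and the 313 at least 2-fold higher with cadmium (right pair), in Cy5 (treated roots) and Cy3 (water roots). Boxes span the quartiles and whiskers the lowest and highest gene. The Cy5 medians are 1.42 and -1.46 and the Cy3 medians 0.03 and 0.05.

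The genes higher with one metal often had a mean ratio above 0 with both. A dye effect of a probe remains in a ratio to water, and these are descriptions of genes chosen by the difference. For the 583 genes higher with copper the median log2 ratio to water was 1.74 in copper roots and 0.19 in cadmium roots. In 403 of them both means lay above 0, in 178 copper lay above and cadmium below 0, and in 2 both lay below 0. Over all 23417 genes both means lay above 0 in 39.7%, against 69.1% of the 583. For the 313 genes higher with cadmium the median log2 ratio to water was 0.67 in copper roots and 2.32 in cadmium roots. In 255 of these both means lay above 0, in 52 copper lay below and cadmium above 0, and in 6 both lay below 0, so that 81.5% had both above 0. The mean ratio to water was at least 2-fold with both metals in 88 of the 583 genes (15.1%) and in 108 of the 313 (34.5%). The same share over all genes was not counted, so these shares cannot be read against a background.

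The 2 loci with the largest differences on the copper side were Os09g0417600 and Os10g0503300. Their order turned in several alternatives, among them without copper replicate 1 (3.95 and 4.49) and with the scanner's processed signals (4.94 and 6.22). It also turned with a normexp offset of 10 (4.67 and 4.89). The second place was narrow, since the larger difference in the pair Os11g0664700 and Os11g0664800 was 4.11, against 4.12 for Os10g0503300. Os09g0417600 lies on chromosome 9 (accession in the probe name AK068337). Its log2 ratio to water was 6.03, 4.79 and 4.41 in copper roots and 1.21, 0.65 and 0.09 in cadmium roots. All copper arrays lay far above all cadmium arrays, and replicate 1 was the highest in either metal. The difference was 4.42 ± 0.43 (SE, n = 3 per metal, limma adjusted p = 0.00102), which is 21.5-fold. Its treated signal and its water signal were well above background on all arrays. The next tested locus along the chromosome had log2 ratios of 4.60, 4.67 and 4.33 in copper roots and 1.18, 0.49 and 0.06 in cadmium roots. That neighbour separated the metals in the same way, with a difference of 3.96 (limma adjusted p = 0.000259), while the tested loci on the outer sides of this pair differed by 0.03 and 0.06 and were not called.

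The other copper locus, Os10g0503300, lies on chromosome 10. Its log2 ratio was 3.34, 4.46 and 4.43 in copper roots and -0.22, 0.23 and -0.14 in cadmium roots. The copper arrays lay more than 3 log2 units above the cadmium arrays, whose ratios were about 0. The difference was 4.12 ± 0.30 (SE, n = 3 per metal, limma adjusted p = 0.000324). The filter kept this probe through copper arrays alone, and its treated signal in cadmium roots was well above background on 1 of 3 arrays. None of the 4 nearest tested loci was called, with differences between -0.35 and 0.43.

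On the cadmium side the 2 loci were Os10g0542700 and Os09g0492900, whose order turned without cadmium replicate 1 (-3.76 and -4.02). It also turned with the slide as a fixed block (-3.74 and -4.09) and as a random block (-3.97 and -4.05). Os10g0542700 also lies on chromosome 10. Its log2 ratio was 0.28, 0.18 and 0.50 in copper roots and 5.64, 4.41 and 3.74 in cadmium roots. Every cadmium array was more than 3 log2 units above the copper arrays. The difference was -4.28 ± 0.42 (SE, n = 3 per metal, limma adjusted p = 0.00101). Its water signal was well above background on 0 of 3 copper and 1 of 3 cadmium arrays, so no fold is given, and with the scanner's processed signals the difference was -5.27. The loci on either side did not follow it. The tested locus that follows it was higher with copper, by 0.55 (limma adjusted p = 0.0329), and the one after that had 2.11, 3.79 and 3.67 in copper roots and 1.52, 1.31 and 0.99 in cadmium roots. That difference was 1.91, in the opposite direction to Os10g0542700 (limma adjusted p = 0.0262).

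The other cadmium locus, Os09g0492900 on chromosome 9, had log2 ratios of 0.58, 0.35 and 0.38 in copper roots and 4.41, 4.83 and 4.09 in cadmium roots. The groups were separated by more than 3 log2 units and varied little within a metal. The difference was -4.00 ± 0.19 (SE, n = 3 per metal, limma adjusted p = 0.000117). Its neighbour on the side of higher numbers moved with it, at 0.71, 1.23 and 1.11 in copper roots and 4.74, 3.95 and 3.49 in cadmium roots. The tested locus on the side of lower numbers differed in the same direction by less, at -0.51 (limma adjusted p = 0.042). The water signal of Os09g0492900 was also well above background on 0 of 3 copper arrays, and the filter kept Os10g0542700 and Os09g0492900 through cadmium arrays alone. In Cy5 alone the 4 loci gave differences of 4.97, 4.48, -4.29 and -4.70, and each passed (limma adjusted p between 0.0095 and 0.04). Without the replicate 1 arrays, on the shared slide alone, the ratio differences of the 4 loci were 4.23, 4.40, -3.74 and -4.09.

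**Figure D3:**
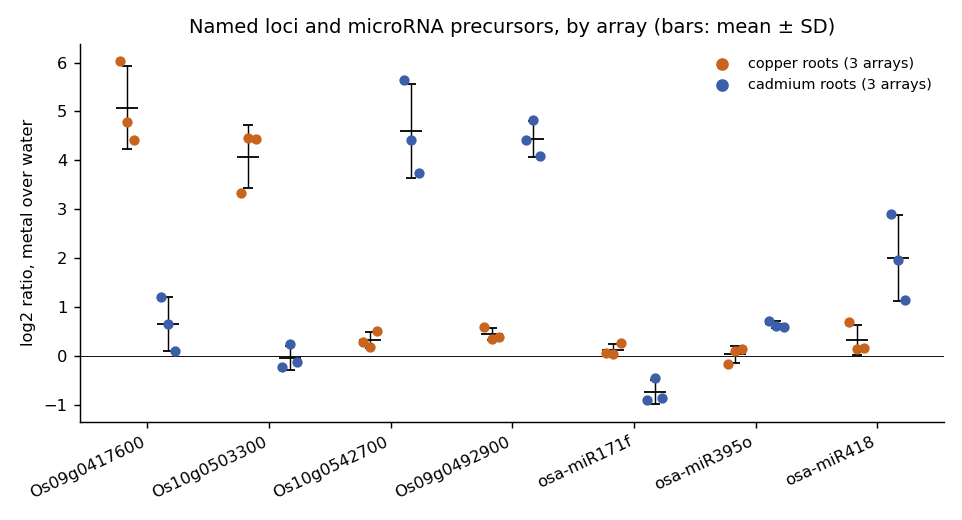
Points are the log2 ratio of metal over water on each array for the 4 loci and the 3 called microRNA precursors, with copper roots left of cadmium roots and bars giving mean ± SD (n = 3). The 7 were chosen among called genes whose copper and cadmium arrays do not overlap, and the 4 loci for the largest differences. That the arrays separate, and that the precursors differ by less than the loci, follows from this choice.

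Rice locus numbers follow the order of genes along a chromosome, which allowed neighbours to be read together. Among loci at least 2-fold higher with copper, 105 of 583 (18%) had a neighbouring tested locus that was also called that way and at least 2-fold different. They formed 46 pairs, 3 runs of 3 and 1 run of 4. Among loci at least 2-fold higher with cadmium, 38 of 312 (12.2%) stood in such groups, which were 13 pairs and 4 runs of 3. Of all genes tested, 2.49% were at least 2-fold higher with copper and 1.34% with cadmium. How many such groups would arise without a link between neighbours was not counted. Neighbouring copies of a gene can be read by the same probes, and their part in these runs was not tested. The loci of a run are called genes, so the separation of their arrays adds nothing to the calls.

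The run of 4 reached from Os11g0229200 to Os11g0229500 on chromosome 11. Its second locus had log2 ratios of 3.04, 1.72 and 2.12 in copper roots and -0.41, -0.14 and -0.55 in cadmium roots. Its last locus had 0.88, 1.73 and 1.20 in copper roots and -0.18, -0.09 and 0.09 in cadmium roots. Within each of the 4 loci copper arrays lay above cadmium arrays, with differences from 1.33 to 2.66. Another 2 runs of 3 lay on the same chromosome, with differences from 1.45 to 2.07 and from 1.38 to 2.68. The remaining copper run was on chromosome 1, from Os01g0959100 to Os01g0959800. Its middle locus had 2.87, 3.52 and 3.73 in copper roots and 0.23, 0.40 and 0.26 in cadmium roots. Its last locus had 1.68, 1.66 and 1.71 in copper roots and -0.44, 0.13 and 0.11 in cadmium roots. The cadmium ratios of all 3 loci were close to 0, and the differences were 2.71, 3.08 and 1.75. The water signal of the first was not well above background on any array.

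The cadmium runs of 3 lay on chromosomes 3, 8, 10 and 11. The run from Os10g0525500 to Os10g0525800 differed by -2.45, -2.69 and -2.87. Its last locus had log2 ratios of 0.41, 0.40 and 0.55 in copper roots and 3.72, 3.33 and 2.94 in cadmium roots. Its middle locus had ratios above 0 with both metals, at 2.38, 2.15 and 2.75 in copper roots and 5.85, 5.30 and 4.20 in cadmium roots. In the run from Os08g0155900 to Os08g0156100 the ratios of both metals also lay above 0. Its first locus had 3.61, 3.74 and 4.31 in copper roots and 5.63, 5.93 and 5.94 in cadmium roots. The differences of this run were -1.94, -1.46 and -2.77, and in each locus the cadmium arrays lay above the copper arrays. The run on chromosome 3 differed by -2.97 to -2.07. In the run on chromosome 11 all cadmium arrays also lay above all copper arrays, but the water signal of its 3 loci was well above background on 0 of 6 arrays, and no size is given.

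**Figure D4:**
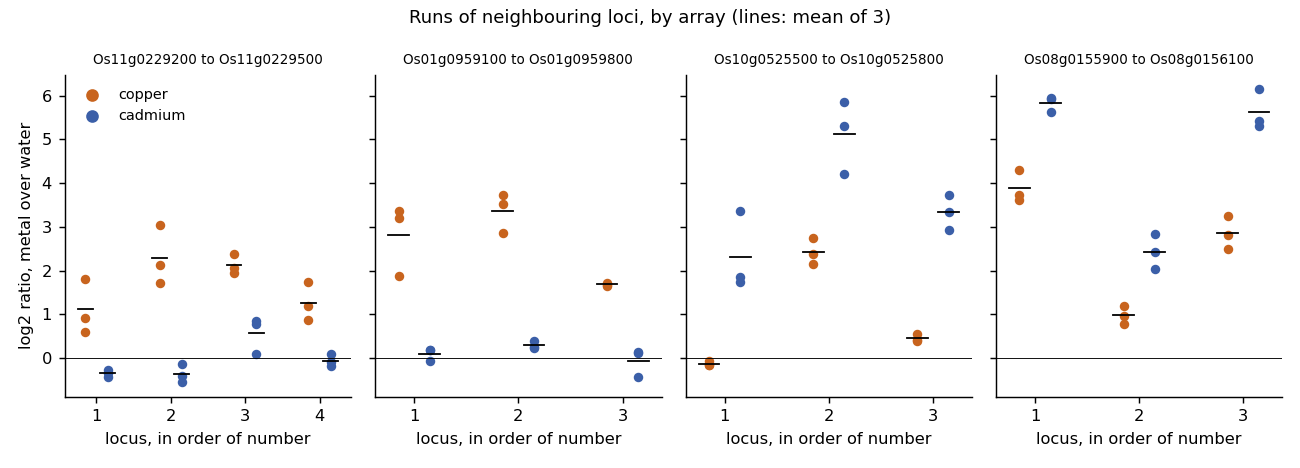
Points are log2 ratios of metal over water on each array for the loci of 4 runs, numbered in the order of their locus numbers, with copper left of cadmium at each locus and lines marking the mean of 3. In the first pair of panels the cadmium values lie between -0.55 and 0.844, and at each locus the copper values lie above them. In the other pair the cadmium values are higher, and in several loci copper also lies above 0.

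Genes higher with either metal were spread over all 12 chromosomes. The share of tested loci higher with copper went from 5% on chromosome 12 to 8.04% on chromosome 1, and the share higher with cadmium from 3.03% on chromosome 12 to 5.16% on chromosomes 3 and 9. At least 2-fold higher with copper were 51 of 1288 loci on chromosome 11 (3.96%), which was the highest share, and 29 of 1564 on chromosome 8 (1.85%), which was the lowest. At least 2-fold higher with cadmium were 22 of 1260 loci on chromosome 9 (1.75%) and 15 of 1807 on chromosome 7 (0.83%). These shares are descriptions without a test, and they hold the runs given above.

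Called probes of the same gene seldom went in opposite directions. A fit over all 33695 kept probes called 2306 higher with copper and 1381 higher with cadmium (10.9%, limma, adjusted p under 0.05). Of 588 genes with at least 2 called probes, 8 had probes called in opposite directions. Over 1 probe was tested in 6628 genes, and genes with some probes called and others not were not counted.

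Few microRNA precursors differed between the metals. Of 129 measured precursors 1 was higher with copper, 2 were higher with cadmium and 126 were not called. That is 2.33%, against 10.6% of all genes. By probe the contrast was smaller, since 13 of 214 kept precursor probes (6.07%) were called in the fit over all probes, against 10.9% of all kept probes, and 10 precursors had a called probe. The 95% interval lay within 1 log2 unit of 0 in 124 of the 129 (96.1%). These intervals hold for the normexp offset of 50 and do not bound the difference under other background corrections. That of osa-miR395o, from -0.888 to -0.339, counted as within. Its difference was -1.25 with an offset of 10 and -2.68 with the scanner's processed signals. The median difference was -0.06, with quartiles of -0.18 and 0.04, and 84 of 129 (65.1%) lay below 0, against 51.2% of all genes. Of these 84, 21 belonged to the miR395 family, in which 20 of 22 measured members were read on a shared mature sequence. Cadmium arrays lay wholly above copper arrays in 21 of the 129 precursors and copper arrays above cadmium arrays in 4, against 15.2% and 16% of all genes. The share on the cadmium side was thus near that of all genes, and the share on the copper side was below it. Of the 21, 8 belonged to the miR395 family. The filter kept 17 of the 129 through cadmium arrays alone and 3 through copper arrays alone. Without the filter 104 of 169 (61.5%) lay below 0, with a median of -0.04. On the shared slide alone the median of the measured precursors was -0.02, and 7 were called. Without cadmium replicate 1 only 69 of the 129 (53.5%) lay below 0, with a median of -0.01, so the lean of the precursors depended on that array.

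The precursor called higher with copper was osa-miR171f, on chromosome 3. MiR171 directs the cutting of transcripts for GRAS transcription factors that act in meristems. Its log2 ratio was 0.06, 0.04 and 0.26 in copper roots and -0.90, -0.45 and -0.87 in cadmium roots. The copper ratios were near 0, the cadmium ratios were below 0, and no arrays overlapped. A dye effect of the probe remains in these ratios, so they do not place either metal against water. The difference was 0.86 ± 0.15 (SE, n = 3 per metal, limma adjusted p = 0.0101). On the shared slide alone it was 0.81. Its second kept probe, on the other flank, gave 0.68 (limma over all probes, adjusted p = 0.0335). In Cy5 alone the difference was 1.34 (limma adjusted p = 0.581), and the water channel differed by 0.48. Without copper replicate 3 the adjusted p was 0.0501. The other members of the family, looked up after their values were seen, did not go one way. The value of osa-miR171h was -0.34, -0.77 and -0.95 in copper roots and -1.66, -0.79 and -1.47 in cadmium roots, a difference of 0.62 with overlapping arrays (limma adjusted p = 0.165). The value of osa-miR171c was -0.28, 0.03 and 0.06 in copper roots and 0.73, 0.45 and 0.15 in cadmium roots. Its arrays did not overlap and its difference was -0.51 (limma adjusted p = 0.105), while its other flank probe passed in the fit over all probes at -0.54 (adjusted p = 0.0487). The differences of osa-miR171b, osa-miR171e and osa-miR171g lay between 0.04 and 0.10.

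The larger of the differences on the cadmium side was that of osa-miR418, on chromosome 2. Its log2 ratio was 0.69, 0.15 and 0.15 in copper roots and 2.91, 1.96 and 1.14 in cadmium roots. The groups did not overlap, and replicate 1 was the highest in either metal. The difference was -1.67 ± 0.40 (SE, n = 3 per metal, limma adjusted p = 0.0372) and on the shared slide alone -1.40, and the second flank probe gave -1.42 (limma over all probes, adjusted p = 0.00143). The water signal was well above background on 1 of 3 arrays of either metal. The size depended on the background correction, at -2.20 with a normexp offset of 10 and -3.19 with the scanner's processed signals. Without cadmium replicate 1 it was -1.22. Leaving out copper replicate 2 or 3 (adjusted p = 0.128 each) or cadmium replicate 2 (adjusted p = 0.107) ended the call.

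The precursor osa-miR395o, on chromosome 4, had log2 ratios of -0.16, 0.10 and 0.15 in copper roots and 0.72, 0.60 and 0.60 in cadmium roots. All 3 cadmium arrays lay above all copper arrays, whose ratios were about 0. The difference was -0.61 ± 0.12 (SE, n = 3 per metal, limma adjusted p = 0.0167). The signal was dim, and the size of the difference depended on the background correction. It was -1.25 with a normexp offset of 10, -2.68 with the scanner's processed signals and -2.83 with the ratios of the authors' deposited table. The treated channel was well above background on 1 of 3 copper arrays and 3 of 3 cadmium arrays, the water channel on 0 of 3 of either, and the filter kept the probe through cadmium arrays alone. Without the filter a brighter probe on the mature sequence stood for this precursor, with a difference of -0.14 (adjusted p = 0.486). Leaving out copper replicate 2 gave an adjusted p of 0.0541, leaving out cadmium replicate 2 gave 0.0615 and leaving out cadmium replicate 3 gave 0.0557.

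The family of miR395, which acts on sulfate transporters and ATP sulfurylases and is known to rise when sulfur is short, had more members higher with cadmium. Of 22 measured precursors 21 had a difference below 0, with a median of -0.18, and 1 was called. Over all precursors, this family included, 84 of 129 lay below 0. On the shared slide alone 17 of the 22 lay below 0 (77.3%), with a median of -0.08, and without copper replicate 1 the median was -0.11. The probe that stood for 20 of the 22 lies on the mature sequence, which the members share, so these values are best read as 1 signal. Over the 21 kept probes on the mature sequence the median log2 ratio was 0.16, 0.35 and 0.34 on the copper arrays and 0.51, 0.48 and 0.36 on the cadmium arrays. The cadmium medians were the higher, and by little on replicate 3. None of these 21 probes was called.

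Probes on the flanks of the miR395 hairpins gave larger differences. Over 20 kept flank probes of 13 precursors the median log2 ratio was 0.03, 0.03 and 0.06 on the copper arrays and 0.87, 0.46 and 0.40 on the cadmium arrays. The cadmium medians were the higher on all 3 arrays, with replicate 1 the highest. The copper medians near 0 are largely ratios of signals not above background and do not place copper roots at the water level. The fit over all probes called 6 of the 20, from 5 precursors, all higher with cadmium. In 12 of the 20 the treated signal was not well above background on any copper array. Only the probe of osa-miR395t had a channel well above background on all 3 copper arrays. The other kept flank probes, among them all 6 that were called, passed the filter through cadmium roots, which favours that direction. Over all 46 flank probes of the family, without a filter, 40 had a difference below 0 (87%), with a median of -0.25 that was -0.53 with a normexp offset of 10 and -1.70 with the scanner's processed signals, so its size depended on the background correction. The same share without a filter was 64.7% over the 340 flank probes of all precursors, these 46 included.

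For flank probes dim in all copper arrays a lower bound was taken in place of a fold. It sets the mean Cy5 level of cadmium roots against the lowest signal well above background on each copper array, or the probe's own signal where that was higher, and the dyes were not swapped. For osa-miR395s the mean Cy5 level was 6.10 in copper roots and 6.75 in cadmium roots on the log2 scale, so that the level was at least 1.45-fold higher with cadmium. The bound itself was not tested, and the ratio difference of this probe was -0.83 (limma over all probes, adjusted p = 0.00985). For osa-miR395e these levels were 6.19 and 6.77, at least 1.47-fold higher with cadmium, and the ratio difference was -0.56 (limma adjusted p = 0.0224). The bounds of the 12 probes lay between 1.2-fold and 1.57-fold. These probes passed the filter through cadmium roots and were chosen after their values were seen.

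In the miR169 family, which targets transcripts of NF-YA subunits, 10 of 12 measured precursors lay below 0, with a median of -0.16, and 0 were called (limma, with the smallest adjusted p at 0.0566). Without the filter 11 of 16 lay below 0. The lowest was osa-miR169i, with -0.02, -0.20 and 0.35 in copper roots and 1.40, 0.56 and 0.42 in cadmium roots. All cadmium arrays lay above all copper arrays, with replicate 1 furthest from them, and the difference was -0.76 (adjusted p = 0.119). Its other flank probe, at -1.07, passed in the fit over all probes (limma adjusted p = 0.0149). The families of miR160, which targets auxin response factors, and of miR441 had 5 of 6 and 3 of 3 members below 0 with 0 called. The large families of miR166 and miR156, which target HD-ZIP III and SPL transcription factors, were centred on 0. Their medians were -0.01 over 13 members, which lay between -0.16 and 0.09, and 0.01 over 11, which lay between -0.27 and 0.16. The parts of the miR166 hairpins differed. Of its kept flank probes 14 of 19 lay below 0 (73.7%, median -0.08), against 71.6% of those of all precursors. Of its kept probes on the mature sequence 2 of 7 did (median 0.03). The medians of the miR395, miR169, miR160 and miR441 families stayed below 0, and that of miR171 above 0, in each of 22 alternatives, but their sizes moved. The median of all precursors also stayed below 0 in each, between -0.114 and -0.00929. That of miR399, over 6 members, stayed above 0 in each, between 0.0184 and 0.101. Over the 5 kept flank probes of miR399 the median was -0.00291, with 3 below 0 and 1 called higher with cadmium. Without cadmium replicate 1 the miR169 median was -0.09 and the miR160 median -0.05, and on the shared slide alone the miR160 median was -0.02. With the scanner's processed signals the miR169 median was -0.30. The miR171 median, 0.09 over 6 members, was 0.01 over 9 without the filter.

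**Figure D5:**
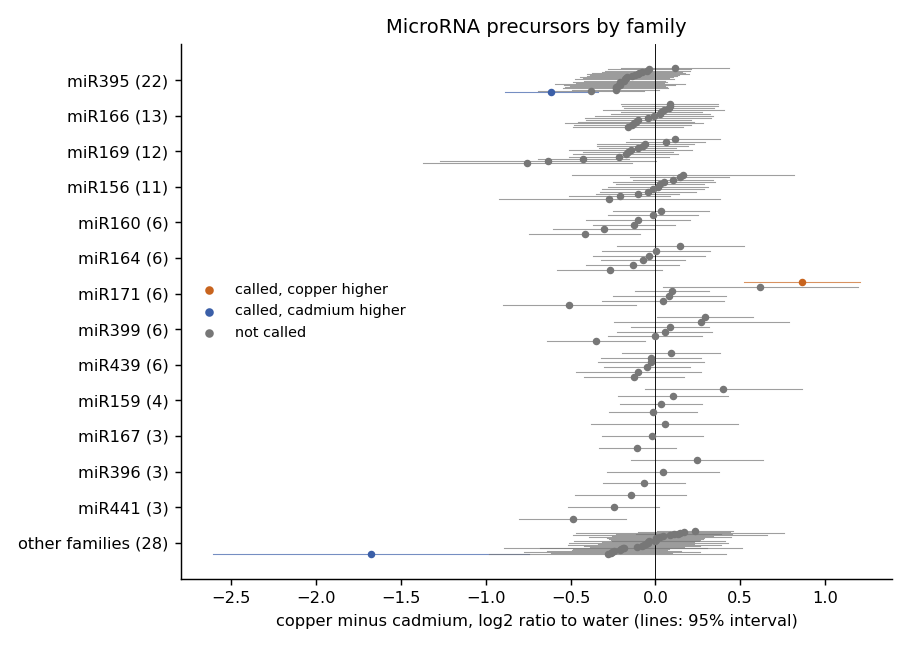
Points are the difference in log2 ratio, copper minus cadmium, of the 129 measured microRNA precursors with 95% intervals, grouped by family (number measured in brackets; families with under 3 measured precursors are together at the bottom). Coloured points passed the test. Of the 22 miR395 points 21 lie left of 0, and the miR166 and miR156 points lie about 0.

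MicroRNAs that are tied to copper supply in plants were looked up after their values were seen. MiR398 acts on copper/zinc superoxide dismutases, and miR408, miR397 and miR528 on other copper proteins such as laccases and plantacyanins. The precursor osa-miR398b had log2 ratios of 0.76, 0.35 and 0.44 in copper roots and 0.50, 0.49 and 0.45 in cadmium roots. The values overlapped, and the difference was 0.04 with a 95% interval from -0.26 to 0.34 (limma adjusted p = 0.876). The precursor osa-miR408 had 0.50, 0.36 and 0.36 in copper roots and 0.80, 0.51 and 0.49 in cadmium roots. Its lowest cadmium value lay just below its highest copper value, and the difference was -0.20, with an interval from -0.48 to 0.08 (limma adjusted p = 0.354). The differences of osa-miR397b and osa-miR528 were 0.03, with an interval from -0.39 to 0.44, and 0.14, with an interval from -0.47 to 0.76.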

How the data were processed

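The deposited spot intensity values (median brightness and local background per channel) are unnormalized output of Feature Extraction 10.7.1.1, per the file headers. The deposited log10 ratio is that of the scanner's processed signals, Cy5 over Cy3, per the file headers. The authors' series table holds log2 ratios that follow those of the scanner (slopes 0.9999 to 1.001). Column medians of that table were -0.067, -0.161 and -0.191 for copper and -0.0498, -0.145 and -0.0797 for cadmium. The authors' centring is not given in the sources used.

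From the intensities, background was corrected with normexp (offset 50) on median signals, the ones these tables hold, in place of the planned mean signals. Loess normalization followed within each array, marked spots were left out (at most 2.85% of an array) and spots of a probe were averaged. A probe was kept if 1 channel was well above background on all 3 arrays of a metal and if each metal had 2 or more values. The brightest kept probe stood for a gene, which left out 6407 loci and 40 precursors. Differences, copper minus cadmium, were tested two-sided with lmFit and eBayes of limma 3.58.1 (R 4.3.3) on all 6 arrays, with Benjamini-Hochberg adjustment over all 23417 genes and a threshold of 0.05. Single channels were scaled with Aquantile. Arrays were treated as independent.

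Members, lists and tests were chosen with earlier results of these data known. Of 33 gene lists, 32, written as names of gene groups from metallothioneins and phytochelatin synthesis to heat shock proteins, matched no gene, since the files name none, and the list of microRNA precursors is reported. Named were the 2 loci with the largest difference in each direction, called precursors whose arrays do not overlap, and loci that bound a run. The deviations of same-numbered arrays from the mean of their metal had correlations of 0.365, 0.245 and 0.269 over genes. For the replicate block the numbers in the titles were taken as pairs. Between copper 2 and cadmium 3 and between copper 3 and cadmium 2 the values were 0.233 and 0.19. Within a metal, the value was 0.301 between copper 2 and copper 3 and 0.275 between cadmium 2 and cadmium 3. These arrays share a slide, so the correlations cannot tell a pairing by number from the slide. Alternatives covered background, scaling, filter, probe choice, blocks and left-out arrays. The 59 other non-control probes carry neither a locus nor a precursor name and were not tested.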

Additional observations from a re-analysis of the deposited data

How the results depend on the processing

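The 4 loci kept their direction and their call in every alternative that gave them a value, 21 or 22 each (differences of 3.65 to 6.25 with copper higher and -5.27 to -3.71 with cadmium higher). The strict filter on dim probes tested only 20185 genes, and the slide as a fixed block only 22602. The strict filter asks for both channels well above background on all 6 arrays. It left out Os10g0503300, Os10g0542700, Os09g0492900, osa-miR395o and osa-miR418, whose calls could not be tried there. No named result turned its direction. Against 1538 and 953 genes higher with copper and with cadmium, the counts were 2202 and 1564 with the replicate block, 3266 and 2617 with the slide as a fixed block, 3261 and 2615 with it as a random block (correlation 0.664), 3370 and 2706 on the shared slide alone, and 811 and 451 with copper 2 and 3 averaged. The genes higher with cadmium were 531 with median centring in place of loess. Leaving out 1 array gave 765 to 1862 and 417 to 1176. Of the 2491 calls 97.1% were also called with the replicate block, 73.8% with the scanner's processed signals, 65% with median centring and 49.5% without copper replicate 3. Precursors called, 3 here, were 6 with the scanner's processed signals (centred or not) and with the authors' table, 1 with the strict filter, 5 with the mean of a gene's probes, with the replicate block and with a random slide block, 7 with the slide as a fixed block and on the shared slide alone, 10 with all kept probes, an alternative chosen after seeing the data, and 1 to 4 without 1 array. Channel calls on the shared slide alone were 4420 in Cy5 and 284 in Cy3. The cause of these shifts was not tested. The call of osa-miR171f was lost in 1 of 22 alternatives, that of osa-miR395o in 4 of 21 and that of osa-miR418 in 5 of 21.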
